A study of Mus musculus with 8 samples.

Results

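The 60-kb stretch of mouse chromosome 7 just downstream of Snrpn (mm9, chr7:67060001-67120000) was read on its minus strand, the strand from which Snrpn is transcribed. A custom Agilent array tiled both strands of the surrounding imprinted locus. The region comprised every minus-strand probe whose lower coordinate fell between these positions. There were 956 such probes among 53834 distinct probes that are not controls, of which 50496 lay in the tiled locus and 3338 outside it. The borders were chosen by the wild-type minus-strand signal of these same arrays, so the wild-type level and its steps at the borders are given as a description with no test. No mm9 gene annotation was used here, so no probe was placed in an exon, an intron or a named RNA.

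Snrpn lies in an imprinted domain, where a gene copy is used or silent according to the parent that passed it on. The paternal copy is transcribed and the maternal copy is methylated and silent at the Snrpn promoter. From the paternal promoter, transcription is known to run far past Snrpn through arrays of small nucleolar RNA genes, which guide modification of other RNAs. In neurons it reaches Ube3a on the opposite strand, where this RNA, called Ube3a-ATS or Snhg14, keeps the paternal Ube3a copy silent. Ube3a encodes a ubiquitin ligase whose maternal loss causes Angelman syndrome. The first stretch downstream of Snrpn is therefore a place where a polymerase that entered at the promoter is seen early on its way to Ube3a.

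The RNA was from cerebral cortex taken at postnatal day 0 from mice on the C57BL/6 background. Wild types (n = 2), per the series' design text littermates of the deletion mice, are called wild type 1 and wild type 2. The maternal deletion (del s-u/+, n = 1) lacks the Snrpn to Ube3a span on its maternal chromosome, and the paternal deletion (del +/s-u, n = 1) lacks it on the paternal chromosome. The double deletions (n = 2) carry that maternal deletion and, on the paternal chromosome, a smaller deletion of the Snrpn promoter, so that their paternal copy of the region is left in place. Their labels name a pair of promoter alleles, del s-u/4.8 and del s-u/0.9, but within each sample the title gives one allele and the genotype field the other. They are called double deletion 1 and 2, and no value is assigned to either allele. For each of these samples 15 µg of total RNA was labelled. PolyA RNA of both wild types (n = 2, 750 ng each, purified from 30 µg of total RNA and mixed with bacterial ribosomal RNA) was labelled in the same way. The labels do not say whether a sample is 1 animal or several, and each p-value covers only the spread among the samples at hand. The exact ends of the deletions are not given in the sources used here, and the tissue could not be checked against marker genes because the probes carry no gene names.

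The double deletions lack a Snrpn promoter, and so the sequence at the start shared with Snurf is shown with that of the most upstream start. RefSeq (GRCm38.p6) lists 4 starts for Snrpn, all on the minus strand. The one at chr7:60005150-60005449 is shared by Snrpn, which encodes a splicing protein, and Snurf, which lies on the same transcript. The most upstream one, at chr7:60450128-60450427, is shared with Snhg14. Each sequence has 250 bases before the start in lower case and the first 50 transcribed bases in capitals. These positions are on GRCm38 and cannot be set against the mm9 positions of the probes. The sources used here do not say which start each promoter allele removes.
Snrpn and Snurf: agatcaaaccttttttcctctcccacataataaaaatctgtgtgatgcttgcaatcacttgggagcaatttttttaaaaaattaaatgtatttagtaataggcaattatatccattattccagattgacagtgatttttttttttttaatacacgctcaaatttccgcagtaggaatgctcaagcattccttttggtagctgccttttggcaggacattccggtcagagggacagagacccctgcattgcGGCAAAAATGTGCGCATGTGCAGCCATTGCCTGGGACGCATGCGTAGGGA
Snhg14 and upstream Snrpn: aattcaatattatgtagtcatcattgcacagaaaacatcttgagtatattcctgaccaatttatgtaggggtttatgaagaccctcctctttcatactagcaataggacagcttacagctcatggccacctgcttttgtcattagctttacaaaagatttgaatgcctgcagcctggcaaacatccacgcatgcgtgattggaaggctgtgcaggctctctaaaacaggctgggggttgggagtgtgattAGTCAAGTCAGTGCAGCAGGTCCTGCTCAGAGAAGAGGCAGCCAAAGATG
The Snrpn and Snurf window holds 7 CG pairs, the sites at which imprinted promoters are methylated, and the upstream window holds 2. Of the 32851 promoter windows in the table, 47.9% hold fewer than 7 and 14.1% fewer than 2. Going from Snurf toward Ube3a, RefSeq lists 3 entries before the first Snord116 copy. They are LOC115486845 and Snord64, both small nucleolar RNA genes, and the pseudogene Gm22373. Of the 210 entries between Snurf and Ube3a, 206 are small nucleolar RNAs.

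The scanned value of a probe was the median red (Cy5) pixel intensity of its spot. Over the 956 probes of the region the median intensity was 1225.75 in wild type 1, 1044.5 in wild type 2 and 1112.5 in the maternal deletion. It was 49.5 in the paternal deletion, 116 in double deletion 1 and 409 in double deletion 2. In polyA RNA it was 122.25 and 107. Local background was 34 to 38 on all arrays, so the paternal deletion lay close to it. The scanner software marked 955 of the 956 probes as well above background in each wild type and in the maternal deletion. It marked 599 (62.7%) in the paternal deletion, 907 (94.9%) in double deletion 1, 952 (99.6%) in double deletion 2, and 891 (93.2%) and 849 (88.8%) in polyA RNA. On the plus strand opposite, the median intensity was 37 to 51 on all 8 arrays.

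All further levels are on a log2 scale after background correction, relative to the 75th percentile, within each array, of probes outside the locus. A difference of 1 is a factor of 2. The level 0 stands for an intensity of 135 to 161.4 on the total RNA arrays. On the polyA arrays it stands for 47 and 46, with a local background of 34. There 0 is thus near background, and the polyA differences below rest on that reference. The mean level of the region was 3.19 in wild type 1 and 3.06 in wild type 2, a mean of 3.12 ± 0.09 (SD, n = 2). It was 2.95 in the maternal deletion, 0.35 in the paternal deletion, 0.70 in double deletion 1 and 1.90 in double deletion 2. PolyA RNA of the wild types gave 1.71 and 1.60. The paternal and both double deletions were thus below every wild-type and maternal-deletion array, while the plus strand opposite lay between -0.29 and -0.17 on all total RNA arrays.

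**Figure D1:**
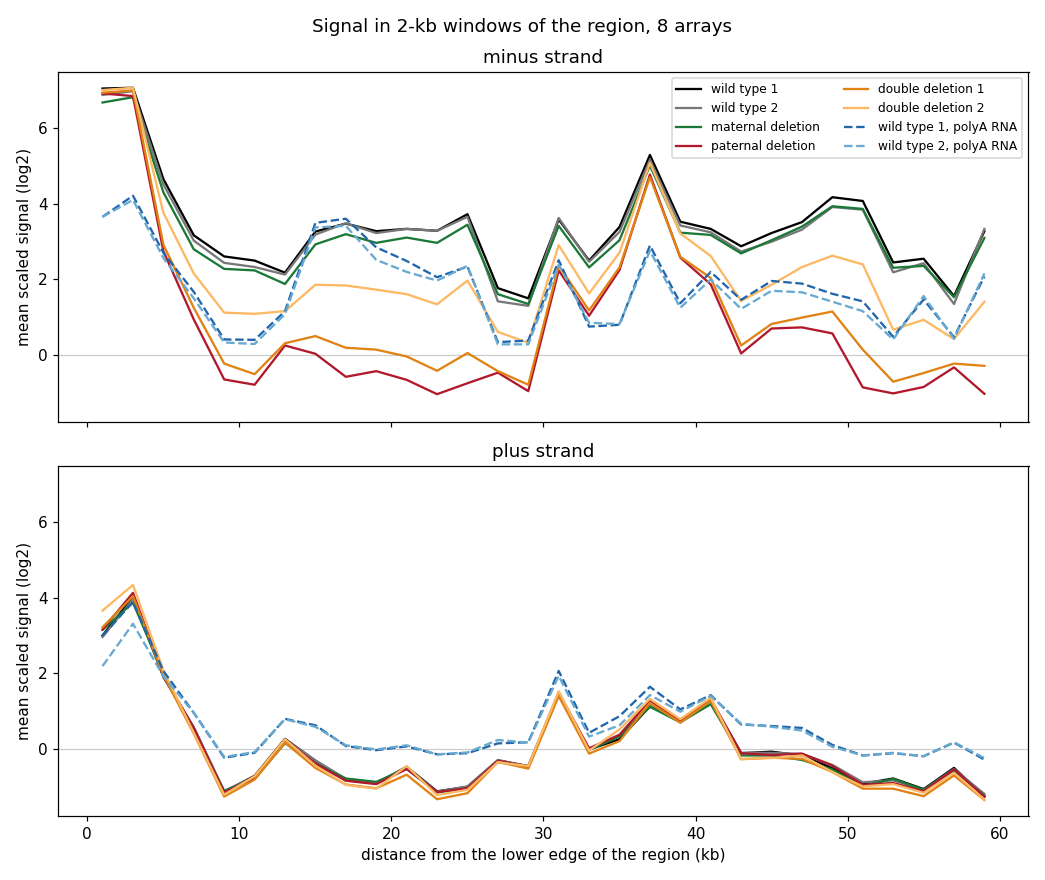
Mean scaled log2 signal of 2-kb windows on the minus strand (upper panel) and the plus strand (lower panel) against the distance from the lower edge of the region in kb, 1 line per array. On the minus strand the wild types and the maternal deletion run together, the paternal deletion and double deletion 1 run lowest over most of the length, and all total RNA arrays meet in the first 4 kb. On the plus strand the total RNA arrays run close together except in the first 4 kb, where the first window has 2.96 to 3.66.

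In wild type the region had a mean level between those of a brighter stretch toward Ube3a and a dimmer one toward Snrpn. The 130 kb below it (chr7:66930001-67060000) had a wild-type minus-strand mean of 5.42 ± 0.03 (SD, n = 2), and the 40 kb above it (chr7:67120001-67160000) had 2.23 ± 0.07 (SD, n = 2). At the lower border, the last 10 kb outside had 6.06 and 5.98 in the wild types and the first 10 kb inside had 4.21 and 4.07. At the upper border, the last 10 kb inside had 2.71 and 2.56, and the first 10 kb outside had 3.36 and 3.33. At both borders the probes just inside were dimmer than those just outside, although over its whole 40 kb the stretch above had a lower mean than the region.

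Within the region the wild-type level ranged from 1.39 to 7.02 over 30 windows of 2 kb, with a median of 3.28. The highest were the first pair, at 0 to 2 kb (6.97 ± 0.12, SD, n = 2) and 2 to 4 kb (7.02 ± 0.06, SD, n = 2) from the lower edge, followed by the window at 36 to 38 kb (5.23 ± 0.09, SD, n = 2). The lowest were at 28 to 30 kb (1.39 ± 0.14, SD, n = 2), 56 to 58 kb (1.44 ± 0.15, SD, n = 2) and 26 to 28 kb (1.58 ± 0.24, SD, n = 2). Neither the first pair nor the lowest windows differed from each other beyond their spread. Between 14 and 26 kb the level was even, with 2-kb means of 3.22 to 3.69. Single probes ranged from -1.39 to 8.67 with a median of 2.86, and the wild types differed by a median of 0.20 per probe.

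The first 4 kb was bright on every total RNA array. Its 36 probes had 7.06 and 6.93 in the wild types, 6.75 in the maternal deletion, 6.89 in the paternal deletion and 6.97 and 7.04 in the double deletions. No total RNA array differed from the wild-type mean by more than 0.25 there, including the paternal deletion, whose mean over the rest of the region was 0.09. The plus strand opposite was bright as well, at 2.98 in the first and 3.99 in the second window of wild type. All 36 probes there are custom designs and none is a catalogue probe. No probe sequences were used here, so whether these probes match repeats or other transcripts was not tested. Without the first 4 kb, the region had 2.97 ± 0.09 (SD, n = 2) in wild type and 0.09 in the paternal deletion.

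Custom and catalogue probes covered the rest unevenly. The array holds 411 probes with Agilent catalogue names in the region and 545 custom probes, which are spaced evenly. Catalogue probes had a wild-type median of 2.47 and custom probes one of 3.29. In all 8 arrays the custom probes of the plus strand were also brighter than the catalogue probes there, by 0.42 against -0.97 in wild type. Brightness on both strands and the share of custom probes thus move together along the region, and their part in the results below was not tested beyond the values given for catalogue probes alone.

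The paternal deletion asks how much of the minus-strand RNA depends on the paternal chromosome. The region fell from 3.12 ± 0.09 (SD, n = 2) to 0.35, a log2 change of -2.78 (SE 0.07) or 6.85-fold, with an adjusted p of 5.12e-06 in limma over 62 windows of 60 kb. Of those windows 25.8% were called lower. The spread in this test is that of the wild-type pair, and the single deletion array is assumed to vary like them. With the double deletions pooled into the estimate of the spread, whose arrays differ from each other, the change was the same and the adjusted p was 0.107 in limma. In that fit 0 of the 62 windows were called. The size rests on the background correction, the scale and the probes used. It was -4.80 on background-subtracted signal and -3.88 on the authors' series matrix, which holds 411 probes of the region. The 411 catalogue probes gave -3.34 with the main correction and scale. Scaling the array on all probes gave -1.53 and moved the median of all probes from -0.02 to 1.23.

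All 6 bins of 10 kb were called lower in the paternal deletion, against 22.2% of 356 bins on the array. The falls were uneven. From the lower edge upward they were -1.92 (SE 0.08), -3.26 (SE 0.06), -3.47 (SE 0.07), -1.09 (SE 0.05), -2.59 (SE 0.09) and -3.49 (SE 0.08), with adjusted p-values in limma of 2.86e-05 to 0.000356. The bin at 30 to 40 kb (chr7:67090001-67100000) went from 3.57 and 3.51 in wild type to 2.45, while the bin at 50 to 60 kb (chr7:67110001-67120000) went from 2.71 and 2.56 to -0.84. The bin at 30 to 40 kb turned to a rise of 0.16 when the array was scaled on all probes. On catalogue probes alone the region changed by -3.34 (SE 0.07) and the bins by -2.96, -3.58, -3.70, -2.04, -3.16 and -3.41 in the same order, so the bins at 0 to 10 and 30 to 40 kb came closer to the others. None of the 6 bins was called with all total RNA samples in 1 fit, and 0 of the 356 bins on the array were called there. The region changed by -2.72 in that fit without wild type 1 and by -2.84 without wild type 2. Catalogue probes made up 20.9% of the probes of the bin at 30 to 40 kb and 50.8% of those of the bin at 50 to 60 kb.

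On the plus strand the same 6 bins moved by -0.05 to 0.04 in the paternal deletion. These values were not tested. The wild types had an SD of at most 0.02 there (n = 2). The plus-strand values move with the scale: among probes that passed the filter they ran from -0.07 to 0.06 in the main setting, from 0.19 to 0.65 with quantile normalization and from 1.18 to 1.31 with all probes as the scale.

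**Figure D2:**
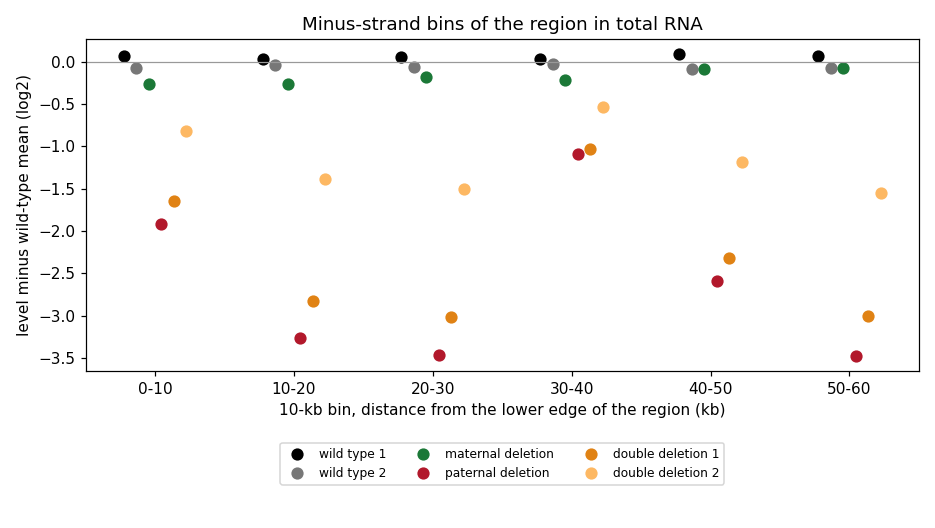
Level of each total RNA array minus the wild-type mean (log2) for the 6 minus-strand bins of 10 kb, by distance from the lower edge in kb, 1 point per array. The paternal deletion is lowest in every bin, from -1.09 at 30 to 40 kb to -3.49 at 50 to 60 kb, followed by double deletion 1 and double deletion 2, while the maternal deletion lies within 0.27 of wild type.

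Of 955 probes tested, 791 were called lower in the paternal deletion and none higher, against 14.7% of 47733 probes on the array called lower. At an unadjusted p under 0.05 there were 820, beside 12682 of 47733 on the array. With all total RNA samples in 1 fit 0 probes of the region were called, beside 0 of 47705 on the array. In that fit the median change of the probes tested was -2.78 without wild type 1 and -2.94 without wild type 2. The median change over all 956 probes was -2.88, beside -0.02 over all probes tested on the array. Of the catalogue probes 405 of 411 (98.5%) were called lower, and of the custom probes 386 of 545 (70.8%). The 165 probes not called lay mostly in a pair of stretches: 53 in the first bin, 34 of them among the 36 probes of the first 4 kb, and 53 in the bin at 30 to 40 kb. The probes not called were brighter in wild type, with a median of 6.48 against 2.5 for those called. The plus-strand probes opposite them were brighter too, with a median of 3.11 against -1.28. Among windows with at least 40% catalogue probes (n = 18) the paternal change ran from -4.45 to -1.79, and among the other 12 from -4.83 to -0.04.

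**Figure D3:**
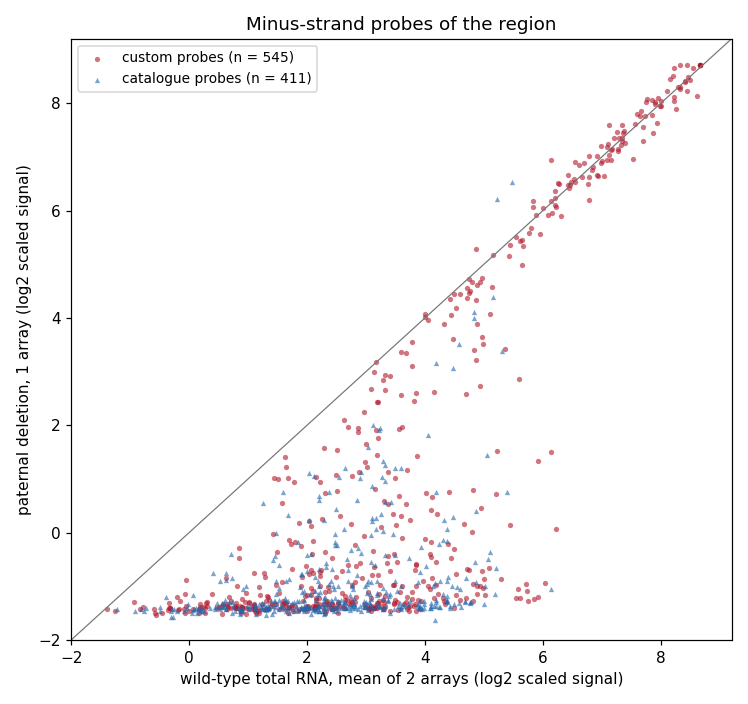
Each minus-strand probe of the region by its wild-type level (mean of 2 arrays, log2) and its level in the paternal deletion (1 array, log2), with custom probes (n = 545) as circles and catalogue probes (n = 411) as triangles. The grey line marks equal levels. Most probes lie in a band along the bottom near background, and a second group of bright probes, nearly all custom, lies on the line.

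The 3 largest falls lay between 49.6 and 50.8 kb from the lower edge. The catalogue probe at chr7:67109628-67109687 had intensities of 12696 and 9967 in the wild types, 11430 in the maternal deletion, 52 in the paternal deletion, 567 in double deletion 1 and 4272 in double deletion 2. Its change in the paternal deletion was -7.19 (SE 0.18), 147-fold, with an adjusted p of 4.01e-05 in limma. The custom probe at chr7:67110776-67110835 had 11317 and 8262 in the wild types and 47 in the paternal deletion, a change of -7.12 (SE 0.21) with an adjusted p of 5.6e-05 in limma. The next, at chr7:67110446-67110505, had 11043 and 7672 in the wild types and 43.5 in the paternal deletion, a change of -7.08 (SE 0.24) with an adjusted p of 7.64e-05 in limma. In all 3 the double deletions lay between the paternal deletion and the wild types without overlap, and double deletion 1 was the lower. The 2-kb window that holds the latter pair, at 50 to 52 kb, had the largest window change, from 4.07 and 3.84 in wild type to -0.87.

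At the other end, 43 of the 956 probes had higher values in the paternal deletion than in either wild type, none of them called. Those with the largest difference were 3 probes. The catalogue probe at chr7:67104574-67104633 had 9146.5 and 5570 in the wild types and 14423 in the paternal deletion, a change of 1.06 (SE 0.31) with an adjusted p of 0.105 in limma. The maternal deletion was high there too, at 12812. The catalogue probe at chr7:67115773-67115822 changed by 1.0 (SE 0.27) and the custom probe at chr7:67097686-67097745 by 0.80 (SE 0.19), with adjusted p-values of 0.0882 and 0.063 in limma. The first lies 44.6 kb from the lower edge, in a bin whose mean fell by 2.59.

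The 3 brightest probes of the region could not show a change. Those at chr7:67065016-67065075, chr7:67063696-67063755 and chr7:67086796-67086855 were at 65508, the ceiling of the scanner, on all 6 total RNA arrays. In all, 12 probes were saturated on at least 1 array and 4 on all total RNA arrays.

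At the 357 probes that were not well above background in the paternal deletion, the fall has only a lower bound. Setting them to the lowest signal among probes well above background on that array, -1.62, moved 1 of them. The others were not below that signal, so the unchanged change of -2.78 and median of -2.88 follow from the bound. They do not show how signal near background affects the fall. The catalogue probe at chr7:67074769-67074828, for example, had a change of -3.43 or lower, from 441.5 and 910 in the wild types to 37, with an adjusted p of 0.00888 in limma. By its label the paternal deletion lacks the Snrpn to Ube3a span, where the region lies, so its paternal DNA template is absent there. The double deletions keep their paternal copy of the region. For them, bulk RNA cannot tell fewer cells that make a transcript from less of it per cell.

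The maternal deletion asks the same of the maternal chromosome. The region had 2.95, beside 3.19 and 3.06 in wild type, a change of -0.18 (SE 0.07) with an adjusted p of 0.182 in limma, which is not past the threshold of 0.05. It lay below both wild types in 22 of 30 windows of 2 kb, and the window changes ran from -0.32 to 0.08. Of the 6 bins, 1 was called lower, the bin at 10 to 20 kb with -0.25 (SE 0.06) and an adjusted p of 0.0449 in limma, against 7.58% of bins on the array. Of 956 probes 12 were called lower and 3 higher, against 1.23% and 8.54% of 48504 probes on the array. The median change was -0.17, beside -0.07 over all probes tested on the array. Background-subtracted signal (-0.27, adjusted p = 0.0275 in limma), the series matrix (-0.20, adjusted p = 0.0427) and the scale on all probes (-0.14, adjusted p = 0.0476) put the region past the threshold, in the same direction. The paternal deletion lay 2.60 below the maternal deletion on the log2 scale (paternal minus maternal -2.60), a difference between single arrays with no test.

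Both double deletions had less signal than both wild types, and they differed from each other. Double deletion 1 had 0.70, beside 0.35 in the paternal deletion, and double deletion 2 had 1.90. The median intensity was 116 in double deletion 1 and 49.5 in the paternal deletion. Near background such gaps move with the correction. On background-subtracted signal the double deletions as 1 group changed by -2.47 against wild type and the paternal deletion by -4.80. Against the wild-type mean these are 5.37-fold and 2.34-fold lower. Double deletion 1 was below double deletion 2 in all 30 windows of 2 kb, and both were below both wild types in 28. The exceptions were the first pair of windows, where the double deletions lay within 0.05 of the wild-type mean. The paternal deletion was below double deletion 1 in 29 windows.

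As 1 group the double deletions averaged 1.30 ± 0.85 (SD, n = 2), a change of -1.83 (SE 0.49) against wild type with an adjusted p of 0.119 in limma, which is not past the threshold. None of the 6 bins was called, against 3.65% of bins on the array called lower. All 6 had an unadjusted p under 0.05, beside 98 of 356 bins on the array. The changes of the 6 bins ran from -2.28 to -0.78. Of 955 probes tested 74 were called lower, against 3.16% of 47437 on the array. At an unadjusted p under 0.05 there were 717, beside 13282 of 47437 on the array. The spread here holds the difference between the samples, which carry different promoter alleles. With each double deletion as its own group, so that the spread is that of the wild-type pair, the same change of -1.83 had an SE of 0.06 and an adjusted p of 0.000128 in limma. In that fit 6 bins and 793 probes were called lower, against 33.4% of bins and 21.8% of probes. Another 4 probes of the region were called higher. On the array 17530 of 47409 probes were called there in either direction. Taken alone against wild type, double deletion 1 changed by -2.43 (SE 0.07, adjusted p = 9.07e-05 in limma) and double deletion 2 by -1.23 (SE 0.07, adjusted p = 0.000915 in limma).

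The maternal deletion shares the maternal chromosome of the double deletions. Against it, their change was -1.65 (SE 0.66) with an adjusted p of 0.928 in limma, and no bin or probe was called, against 0% of bins and 0% of probes on the array. No bin of the region and 111 of its probes had an unadjusted p under 0.05, beside 3 of 356 bins and 2308 of 48673 probes on the array. With the double deletions as separate groups the change of -1.65 had an SE of 0.07 and an adjusted p of 0.00066 in limma. There 6 bins and 752 probes were called lower, against 18.3% of bins and 15.9% of probes. Another 8 probes of the region were called higher. On the array 9467 of 48645 probes were called in either direction in that fit. The comparisons with wild type share the same wild types, and the smallest p that an exact permutation of 2 against 2 samples can give is 0.333.

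The double deletions also varied along the region. By bin from the lower edge upward, relative to wild type, double deletion 1 had -1.65, -2.82, -3.02, -1.02, -2.32 and -2.99 and double deletion 2 had -0.82, -1.38, -1.51, -0.54, -1.19 and -1.55. The bin at 30 to 40 kb had the smallest difference in both. The paternal deletion and the double deletions are set against the same wild types.

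**Figure D4:**
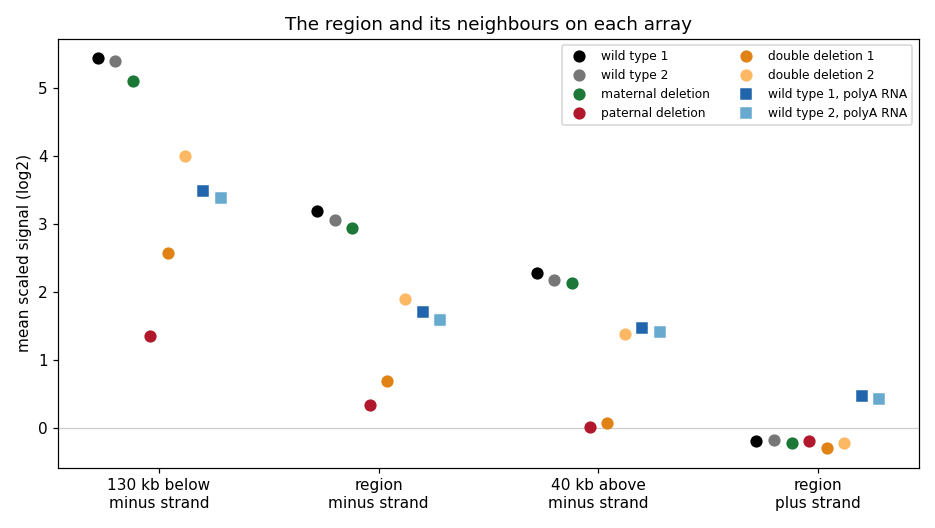
Mean scaled log2 signal of the 130 kb below the region, the region, the 40 kb above it (all minus strand) and the plus strand of the region, 1 point per array, with polyA arrays as squares. In each minus-strand stretch the wild types and the maternal deletion are highest and the paternal deletion is lowest, and the plus strand shows no such order.

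Toward Ube3a and toward Snrpn the minus strand followed the same order of arrays, with other sizes. In the paternal deletion the 130 kb below went from 5.42 to 1.36 (-4.06) and the 40 kb above from 2.23 to 0.02 (-2.21). Set against the 130 kb below on the same array, the region was lower by 2.26 and 2.34 in the wild types, by 2.15 in the maternal deletion and by 1.01 in the paternal deletion. With background-subtracted signal that difference was 2.38 and 2.48 in the wild types and 2.43 in the paternal deletion, so the smaller gap in the paternal deletion appeared only with the main correction. Set against the 40 kb above, the region was higher by 0.91 and 0.89 in the wild types and by 0.33 in the paternal deletion, and by 1.06, 1.05 and 0.05 with background-subtracted signal. These within-array differences do not depend on the scale between arrays and were not tested.

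The polyA comparison asks how the region is represented among RNAs that bind oligo(dT). Relative to probes outside the locus, the region had 1.71 and 1.60 in polyA RNA and 3.19 and 3.06 in total RNA of the same wild types. The change was -1.47 (SE 0.07), 2.77-fold lower, and was -1.48 in wild type 1 and -1.46 in wild type 2. Its adjusted p was 4.66e-44 in limma, a value that rests on the 211 prior degrees of freedom estimated across the windows and not on 4 arrays alone. Of the 60-kb windows 59.7% were called lower. The size depends on the scale, since the polyA arrays were dimmer as a whole, with a median intensity over all probes of 47 and 46 against 104 to 178. It ran from -2.29 with the median of outside probes as the scale to -0.13 with the 75th percentile of all probes, and that scale moved the median of all probes tested from -0.14 to 1.20.

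By bin, polyA RNA was lower by 2.19, 0.77, 1.20, 1.92, 1.61 and 1.49 from the lower edge upward, and all 6 were called, against 46.3% of bins on the array. The second bin turned to 0.57 and the third to 0.14 on the scale of all probes, and the second to 0.39 with quantile normalization and to 0.04 with background-subtracted signal. Of 955 probes tested 794 were called lower and 36 higher, against 40.9% and 32% of 43784 probes on the array. On the scale of all probes the split was 401 lower and 291 higher, and with quantile normalization 526 and 198. On the array 39709 and 23460 of 43784 probes were called in either direction in these settings. The median change of the probes tested was -1.5, beside -0.14 over all probes tested on the array.

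**Figure D5:**
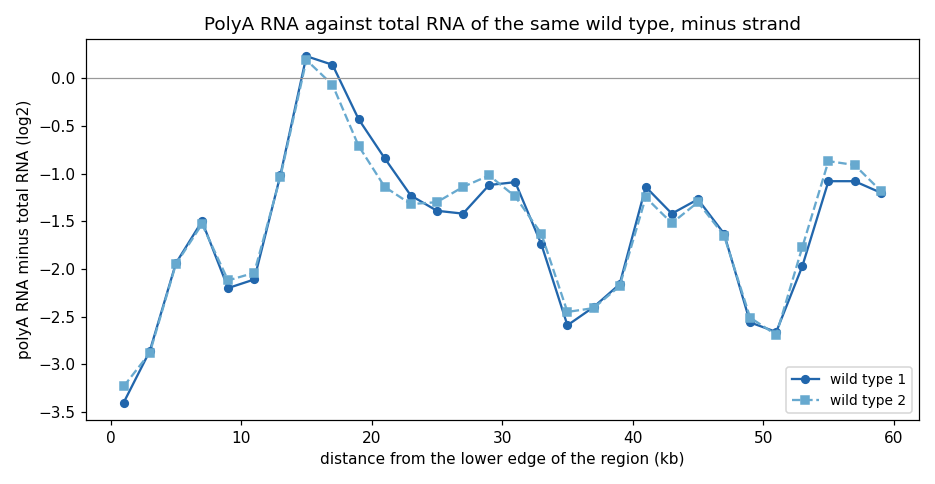
PolyA RNA minus total RNA of the same wild type (log2) in 2-kb windows of the minus strand by distance from the lower edge in kb, with 1 line per wild type. Both lines are highest at 14 to 16 kb, with 0.23 and 0.19, and lowest at 0 to 2 kb, with -3.40 and -3.23.

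The order of the windows within the region does not depend on the scale between arrays, and it was alike in both wild types. It may depend on the background correction, and the windows were not rechecked with background-subtracted signal. The highest differences were at 14 to 16 kb (0.23 and 0.19) and 16 to 18 kb (0.14 and -0.07), followed by 18 to 20 kb (-0.43 and -0.71). At 14 to 16 kb (chr7:67074001-67076000) total RNA had 3.26 and 3.18 and polyA RNA had 3.49 and 3.37. From there the difference declined with distance to -1.23 and -1.32 at 22 to 24 kb, while the mean of total RNA stayed between 3.22 and 3.47. The lowest were the first pair, with -3.40 and -3.23 at 0 to 2 kb and -2.86 and -2.88 at 2 to 4 kb, and the window at 50 to 52 kb, with -2.66 and -2.69. PolyA RNA was below total RNA in both wild types in 28 of 30 windows and above it in both in 1.

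The same 14 to 26 kb stretch was singled out after its polyA values were seen, so its counts are a description and not a test. It held 18 of the 36 probes called higher in polyA RNA, among 216 of the 956 probes, and 22 of the 36 lay in the second bin. In total RNA its 216 probes went from 3.39 and 3.36 in wild type to -0.61 in the paternal deletion, 15.8-fold, and had 0.03 and 1.70 in the double deletions. The custom probe at chr7:67077226-67077285 had the highest difference among probes well above background in both kinds of RNA. Its log2 level was 2.17 and 2.67 in total RNA and 3.81 and 3.75 in polyA RNA, a change of 1.36 (SE 0.19) with an adjusted p of 0.00368 in limma. In the paternal deletion it changed by -3.76 (SE 0.24) with an adjusted p of 0.000676 in limma. Next came the custom probe at chr7:67116166-67116225, with 1.11 (SE 0.10, adjusted p = 0.00101 in limma). It did not differ in the paternal deletion by more than 0.08 and had a plus-strand level of 6.61 opposite. Last of these, the catalogue probe at chr7:67074769-67074828, changed by 1.0 (SE 0.37) and was not called (adjusted p = 0.0672 in limma).

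The plus strand opposite was higher in polyA RNA, at 0.47 and 0.43 against -0.18 and -0.17 in total RNA, though few of its probes were above background, 38.9% and 34.9% in polyA RNA. The difference was 0.65 and 0.60, beside 0.59 and 0.58 for the probes outside the locus. These values move with the scale and were not tested.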

How the data were processed

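Each of the 8 samples was read on 1 array of 1 slide with 1 scan, so slide and scan could not be fitted as batches. The deposited scanner files hold red intensity per spot on a linear scale, not normalized between arrays. Per the file headers, Feature Extraction 10.7.3.1 and an mm9 design were used, whereas the submitters' processing notes name Agilent Feature Extraction 10.9. The authors' series matrix holds the same intensity for 18408 features (411 of the region), multiplied by 1 factor per array of 0.8592 to 1.024 for total RNA and 1.966 and 1.984 for polyA RNA, as found from the values. Its column medians were 104 (maternal deletion), 75.41 (paternal deletion), 89 and 86.02 (wild types), 76.9 and 105.79 (double deletions), and 78.65 and 77.36 (polyA RNA).

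Median red intensities were corrected with normexp (offset 50) in limma 3.58.1 (R 4.3.3), log2-transformed, and set relative to each array's 75th percentile of probes outside chr7:65790585-67800765. A probe was tested if all arrays of 1 or more of the compared groups had it well above background. The tests were lmFit and eBayes (two-sided, threshold 0.05, Benjamini-Hochberg over all 60-kb windows, 10-kb bins or probes; at least 3 probes per window), each comparison on its own groups. No counts stand behind the values, and the number of arrays limits the precision. The test code was tested on simulated data. The polyA samples pair with the wild types whose RNA they share per the labels. The main fit has no block for this (correlation of their replicate differences 0.20 over 50473 probes). Alternatives are given at the end.

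The members and lists were chosen with earlier results of these data known. By rule, the text names all bins, the 3 windows with the highest and lowest wild-type level and polyA difference, and the 3 probes that were brightest, fell most, fell least or had the highest polyA difference. The window at 50 to 52 kb of the paternal deletion, the first 4 kb and the stretch at 14 to 26 kb were singled out after their values were seen. Lists of genes and cell type markers were not applied, since the probes carry no gene names.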

Additional observations from a re-analysis of the deposited data

How the results depend on the processing

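The change of the region kept its direction in all 5 comparisons and under every alternative run. In the paternal deletion it ran from -4.80 to -1.53. It lost its call with all total RNA samples in 1 fit (-2.78, adjusted p = 0.107 in limma, 0 of 6 bins called). In that fit 0 of 62 windows, 0 of 356 bins and 0 of 47705 probes on the array were called. The region also lost its call in that fit without wild type 1 or wild type 2 (-2.84 to -2.72). With all total RNA samples the spread is that of the wild-type pair and of the double deletions. Without a wild type it is that of the double deletions alone. The bin at 30 to 40 kb rose by 0.16 with all probes as the scale, which by construction takes in the bright probes of the locus.

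In the maternal deletion the region passed the threshold with all probes as the scale (-0.14), background-subtracted signal (-0.27) and the series matrix (-0.20), and the adjusted p ran from 0.0275 to 0.993. The count of bins called was 1 in the main setting. It was 3 with all probes as the scale, the series matrix or catalogue probes only. It was 2 with the median of outside probes and 4 with quantile normalization. It was 0 without the filter on dim probes, with background outlier marks left out and with all total RNA samples in 1 fit. On the whole array the bins called were 82 of 356 in the main setting and 97 of 356 with all probes as the scale. They were 84 of 356 with the median of outside probes and 121 of 356 with quantile normalization. With the series matrix they were 126 of 306 and with catalogue probes only 94 of 306. Without the filter on dim probes they were 76 of 356 and with background outlier marks left out 72 of 356. With all total RNA samples in 1 fit they were 0 of 356. Leaving out a wild type moved the bin at 40 to 50 kb to between -0.18 and 0.01 and that at 50 to 60 kb to between -0.15 and 0.

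For the double deletions, quantile normalization gave -1.31 (adjusted p = 0.0341 in limma, 5 bins) against wild type and 2 bins against the maternal deletion. On the array 90 and 33 of 356 bins were called there. With separate groups the values were -1.83 and -1.65, with 6 bins each, beside 194 and 96 of 356 on the array. Without either double deletion the change was -2.43 to -1.23 against wild type and -2.25 to -1.05 against the maternal deletion. The cause of the difference between the double deletions was not tested.

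For polyA RNA the change ran from -2.29 to -0.13. The second bin had 0.57 with all probes as the scale, 0.39 with quantile normalization and 0.04 with background-subtracted signal, and the third had 0.14 with all probes as the scale. With the replicate block the change was -1.47 (SE 0.04), and no call of the region or its bins changed in this paired fit. Catalogue probes only and background outlier marks left out were chosen after seeing the data. The other causes were not tested. Signal near background limits the paternal deletion, and saturation limits 12 probes.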
